A study of Mus musculus with 38 samples.

Results

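RFP-labelled nuclei of 2 Rosa26 knock-in mouse lines were compared by nuclear RNA sequencing, guide by guide, for differences in neuronal, glial and region genes. They came from 5 animals of the Cas9-GFP line and 5 of the Stop-Cas9-GFP line, 10 of the 38 samples of the series. Cas9-GFP mice carry Cas9, the nuclease that cuts DNA where a guide RNA directs it, and GFP in all cells. Stop-Cas9-GFP mice make both proteins once the Cre recombinase has removed a stop cassette. Every animal was adult and received AAV5 vectors in the striatum, and the labelled nuclei were sorted from the brain 2 months later. Each line had 1 animal for each of 5 guide conditions. These were lacZ, a guide with no target in the mouse genome, the guides g3, g4 and g13 against Trim28, and the mixture g3g4g13. The lacZ animals are the controls, and the other 4 animals of each line are labelled as Trim28-KO. In the Cas9-GFP line the guide vector made the nuclear label H2B-RFP from the neuronal synapsin promoter. In the Stop-Cas9-GFP line H2B-RFP was Cre-inducible, and a second vector made Cre from the Synapsin1 promoter. Whether the Cas9-GFP animals also received Cre is described differently in the sources. Mouse line, reporter vector and Cre cannot be told apart in this design, and each library is 1 animal. The p-values of the main fit below rest on how the line difference varied over the 5 guide pairs. Each pair is 1 animal of each line, and the pairs also differ in guide.

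The 3 Trim28 guides were the same in both lines, and their target sites are shown because they make the comparison guide-matched. Each site lies in the coding sequence of Trim28 on the minus strand of chr7 (GRCm38.p6), and exons are counted in the 17-exon RefSeq transcript. The capitals mark the PAM, the bases next to the site that Cas9 needs in order to cut. The positions are chr7:13025675-13025697 for g3 in exon 3, chr7:13027726-13027748 for g4 in exon 4 and chr7:13029921-13029943 for g13 in exon 13.
g3: gcactccacacaatagctagTGG
g4: ggtccttgtgagcgttgagcTGG
g13: cgcactggttacacatgaccAGG

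The striatum consists mainly of medium spiny neurons, GABAergic projection neurons of a direct pathway with the dopamine receptor Drd1 and an indirect pathway with Drd2. Interneurons that carry somatostatin, neuropeptide Y, parvalbumin or acetylcholine make up most of the remaining neurons. Cortex lies above the injected site, septum beside it and thalamus behind it. Nuclear RNA holds much unfinished and retained transcript, so its levels are not those of whole cells.

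Genes on chrX and chrY were left out. The libraries held 10430897 to 13067559 gene counts in Cas9-GFP and 8790346 to 11437265 in Stop-Cas9-GFP nuclei. Medium spiny neuron genes summed to 11263 to 13992 CPM in Cas9-GFP nuclei and 13427 to 16450.4 CPM in Stop-Cas9-GFP nuclei, against 1281 to 1383 CPM in the 3 whole-cortex control libraries of the series. These came from animals aged 3 months of an Emx1-Cre by Trim28-flox cross. The labels give them as Emx1-Cre +/- and Trim28-fl +/-. The methods of the study also describe controls with 1 allele excised, while a figure legend calls the controls Cre-negative. Astrocyte genes summed to 618 to 793 CPM in Cas9-GFP nuclei and 756 to 1019 CPM in Stop-Cas9-GFP nuclei, against 7519.7 to 8242 CPM in that cortex. CPM of the nuclei are read counts scaled to the normalized size of each library. Those of cortex are scaled to the total counts without chrX and chrY, without that normalization. The Cas9-GFP library with lacZ stood apart on the first principal component, which held 23.4% of the variance of the 500 most variable genes, and the Stop-Cas9-GFP library with g3 on the second, which held 18.8%. Both held the most mitochondrial counts of their line, 4.39% and 3.22%, and the fewest detected genes, 18929 and 18820. Their part in the differences between lines was measured by leaving them out.

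Trim28, the targeted corepressor, did not pass the test between the lines. In the order lacZ, g3, g4, g13 and g3g4g13, kept throughout, its levels were 147, 109, 97.5, 101 and 107 CPM in Cas9-GFP nuclei and 111, 109, 133, 109 and 93.3 CPM in Stop-Cas9-GFP nuclei. The ranges overlapped, and the log2 fold change was 0.01 ± 0.12 (SE, adjusted p = 0.978). Here and below a log2 fold change is Cas9-GFP minus Stop-Cas9-GFP from edgeR's quasi-likelihood test with the guide as a block (n = 5 libraries per line), with p-values adjusted over all genes tested by the Benjamini-Hochberg method. Indels in an exon need not remove the transcript, so these counts do not measure editing. Gt(ROSA)26Sor, the noncoding RNA of the locus that carries both knock-ins, stood at 3.32 to 7.70 CPM against 2.99 to 6.65 CPM, with a log2 fold change of 0.21 ± 0.35 (SE, adjusted p = 0.808). Of the 40 genes tested within 1000 kb of it 1 was called, 2.5%, the copine gene Cpne9, chosen here after its values were seen, at 0.62 ± 0.15 (SE, adjusted p = 0.0384).

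Across the genome 133 genes were higher and 128 lower in Cas9-GFP nuclei, of 15650 tested. Called here means passing 0.05 on the adjusted p and exceeding 0.5 in size on the log2 scale, which held for 0.85% of genes on the higher side, 0.818% on the lower side and 1.67% in all. Of the 261 called genes, 247 differed in 1 direction in all 5 guide pairs, and the 2 sets of 5 libraries did not overlap for 182. Over all genes tested, 8.46% were higher and 8.24% lower in all 5 pairs, and the libraries did not overlap for 5.16%, 2.7% on the higher and 2.46% on the lower side. At an unadjusted p under 0.05 stood 18.2% of all genes tested, the share against which such counts below are to be read. The median size of a called log2 fold change was 0.66. Of 12593 protein-coding genes tested 122 were higher and 95 lower, and of 593 lincRNAs tested 2 were higher and 14 lower. With scaling to library size alone 173 genes were higher and 100 lower. Without the lacZ pair 9 genes were called, among them Reln, Zbtb20, Aim2, Gm15419 and A830073O21Rik, and without the g13 pair 34. Without the Cas9-GFP lacZ and the Stop-Cas9-GFP g3 library 232 were called, of which 142 were among the 261, and all 261 kept their direction in each of these 3 fits.

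The 31 marker lists held 265 tested genes, of which 6 were called higher and 7 lower in Cas9-GFP nuclei, 4.91% against the 1.67% of all genes tested. The 10 neuronal lists held 9 of these calls among 114 genes, the 8 region lists 1 among 50, the 8 lists of glia and other cells 2 among 56 and the 5 lists of cell state 1 among 47. The share of the region lists, 2%, was close to that of all genes. The lists were chosen with earlier results of these data known, so these shares describe the calls and support nothing. The called genes are drawn one by one in the plot of called list genes, and every tested member is drawn in the plot of the lists.

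**Figure D1:**
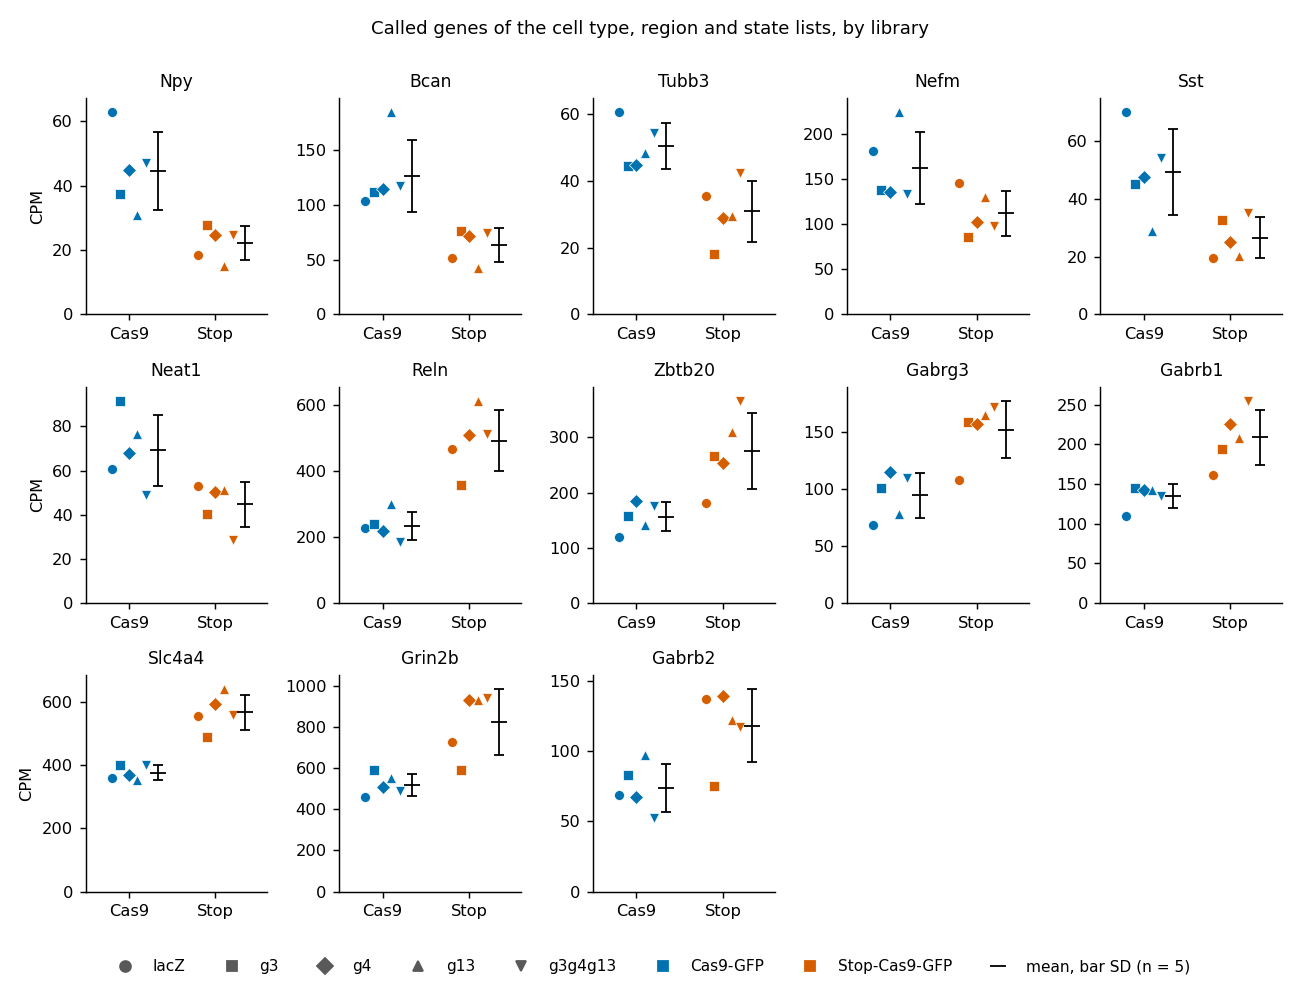
CPM of the 13 called list genes in each library, with a symbol for each guide and the mean and SD of the 5 libraries of a line beside them. The 6 genes higher in Cas9-GFP nuclei stand first, and Reln, at 228, 238, 218, 301 and 186 against 467, 356, 509.8, 612 and 513 CPM, opens the 7 lower ones.

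**Figure D2:**
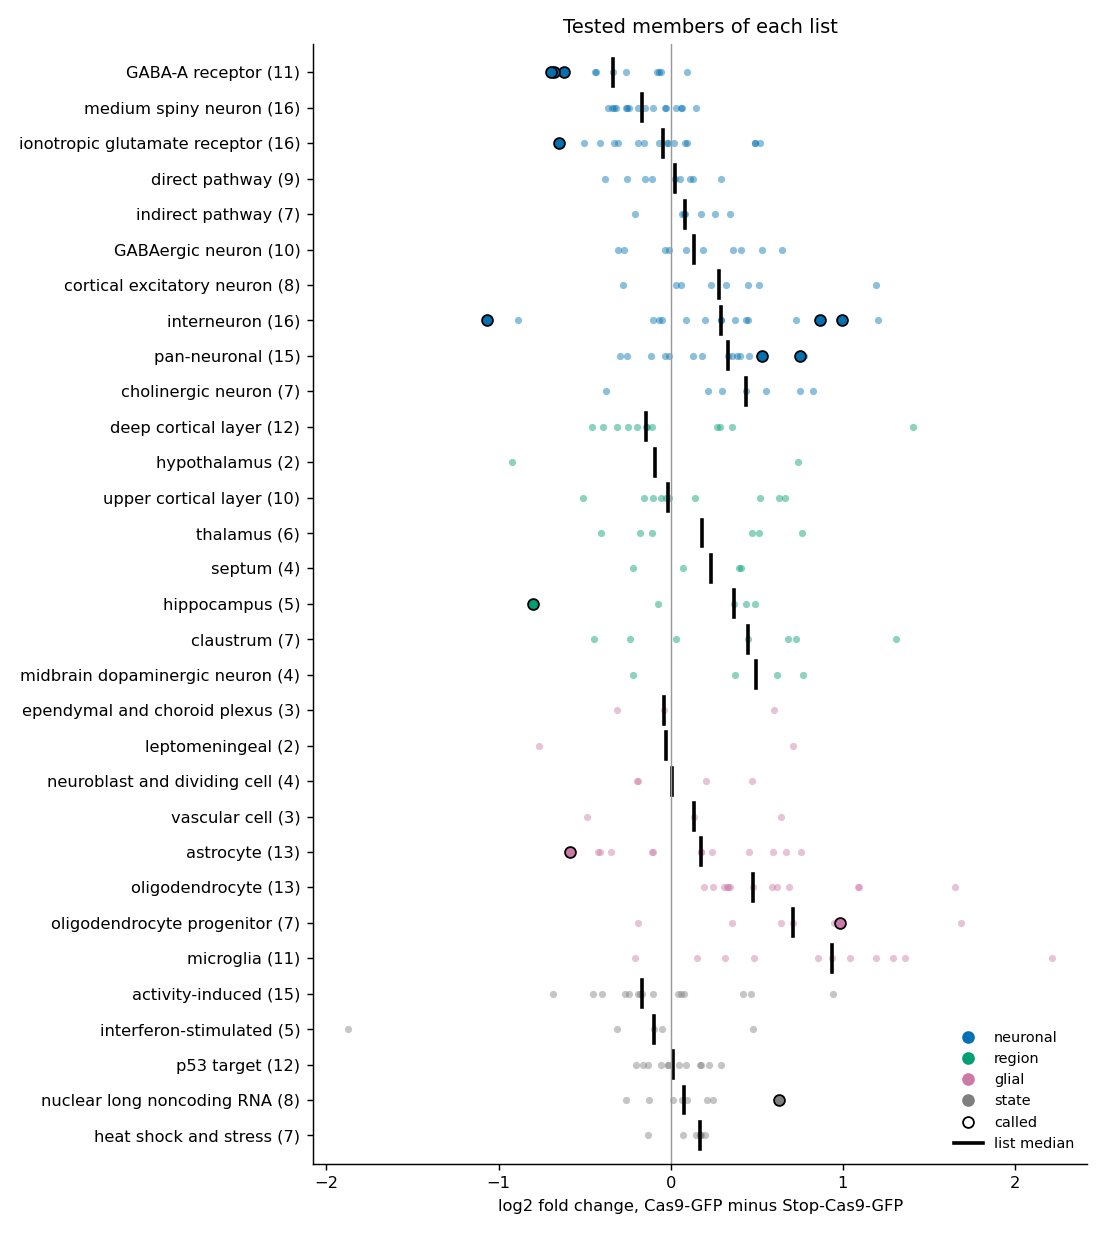
Log2 fold change, Cas9-GFP minus Stop-Cas9-GFP, of each tested member of the 31 lists, with the number tested in brackets, called genes ringed and a bar at the median of the list. The medians run from -0.33 for GABA-A receptor genes to 0.94 for microglia genes, beside 0.00 over all genes.

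Interneuron genes held the gene with the smallest adjusted p of all. Reln, which encodes the secreted glycoprotein reelin of cortical and hippocampal interneurons, was lower in Cas9-GFP nuclei, and the neuropeptide genes Npy and Sst, which mark overlapping striatal interneurons, were higher. Reln (chr5:21884454-22344702, minus strand) measured 228, 238, 218, 301 and 186 CPM in Cas9-GFP nuclei and 467, 356, 509.8, 612 and 513 CPM in Stop-Cas9-GFP nuclei. All 5 Stop-Cas9-GFP libraries lay above all 5 Cas9-GFP libraries, with g13 highest in both lines. The log2 fold change was -1.07 ± 0.12 (SE, adjusted p = 0.000964), and Reln was called in each of the 5 fits without a guide pair.

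Npy (chr6:49822710-49829507, plus strand) measured 62.7, 37.3, 44.7, 30.9 and 47.0 CPM in Cas9-GFP nuclei and 18.5, 27.8, 24.6, 15.1 and 24.8 CPM in Stop-Cas9-GFP nuclei. The ranges did not overlap, with lacZ highest in Cas9-GFP nuclei and g13 lowest in both lines, and the log2 fold change was 0.99 ± 0.17 (SE, adjusted p = 0.00903). Sst (chr16:23889573-23890958, minus strand) measured 70.1, 45.3, 47.8, 28.9 and 54.1 CPM in Cas9-GFP nuclei and 19.6, 32.8, 25.1, 20.3 and 35.2 CPM in Stop-Cas9-GFP nuclei. The g13 library of the Cas9-GFP line lay within the Stop-Cas9-GFP range and the other 4 above it, and the log2 fold change was 0.87 ± 0.18 (SE, adjusted p = 0.0222). Npy was called in 4 and Sst in 2 of the 5 fits that left out a pair. Both were called without the Cas9-GFP lacZ and Stop-Cas9-GFP g3 libraries, with adjusted p = 0.0193 and 0.0451.

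The other interneuron genes were not called. Pvalb, the calcium buffer of fast-spiking cells, had a log2 fold change of 1.20 ± 0.60 (SE, adjusted p = 0.304). Lhx6, a transcription factor of Sst and Pvalb cells, was at 0.30 ± 0.15 (SE, adjusted p = 0.325), and Nos1, the neuronal nitric oxide synthase that shares cells with Npy and Sst, at -0.05 ± 0.13 (SE, adjusted p = 0.880). Cnr1, the cannabinoid receptor, was at -0.10 ± 0.13 (SE, adjusted p = 0.735). Of 16 tested members 11 had a value above 0, and the median was 0.29 beside 0.00 for all genes. The summed level went the other way, at 1164 to 1326 CPM in Cas9-GFP nuclei and 1343 to 1643 CPM in Stop-Cas9-GFP nuclei, without overlap, and this rested on Reln. The list without Reln summed to 926 to 1093 CPM in Cas9-GFP and 884 to 1152 CPM in Stop-Cas9-GFP nuclei, which overlap. In bulk samples fewer cells of a type and less RNA per cell cannot be told apart.

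GABA-A receptors are the chloride channels through which GABA inhibits neurons, each built of subunits of several kinds. Of 11 tested subunit genes 3 were lower in Cas9-GFP nuclei and 0 higher, and 10 had a log2 fold change below 0, with a median of -0.33. The share called was 27.3%, beside 1.67% of all genes tested. Gabrb1, a beta subunit, measured 109.5, 145, 142, 143 and 135 CPM in Cas9-GFP nuclei and 161, 194, 226, 208 and 255 CPM in Stop-Cas9-GFP nuclei. The ranges did not overlap, lacZ was lowest in both lines, and the log2 fold change was -0.62 ± 0.10 (SE, adjusted p = 0.00872). Gabrg3, a gamma subunit, measured 69.0, 101, 115, 78.6 and 109.8 CPM in Cas9-GFP nuclei and 108, 159, 157, 166 and 172 CPM in Stop-Cas9-GFP nuclei. Its lacZ library was again lowest in both lines, and in Stop-Cas9-GFP nuclei it lay within the range of the other line. The log2 fold change was -0.70 ± 0.11 (SE, adjusted p = 0.00838). Gabrb2, another beta subunit, stood at 52.2 to 97.2 CPM against 75.2 to 139.5 CPM, with -0.68 ± 0.16 (SE, adjusted p = 0.0383), and was lower in 4 of 5 pairs, g3 being the exception. Of the 5 fits without a pair, Gabrb1 was called in 4, Gabrg3 in 3 and Gabrb2 in 1. The edgeR adjusted p of Gabrb2 ran from 0.0117 to 0.168 over these 5 fits.

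Gabrd, a delta subunit, was at 0.09 ± 0.12 (SE, adjusted p = 0.735). The sum of the subunit genes was 1579 to 1799 CPM in Cas9-GFP nuclei and 1981 to 2317 CPM in Stop-Cas9-GFP nuclei, without overlap. Ionotropic glutamate receptors, the channels of fast excitation, held 1 call among 16 genes, 6.25% beside 1.67% of all genes tested. Grin2b, an NMDA receptor subunit, measured 460.1, 593, 506, 549.8 and 488 CPM in Cas9-GFP nuclei and 728, 589, 932, 929 and 942 CPM in Stop-Cas9-GFP nuclei. Its Stop-Cas9-GFP libraries with g4, g13 and g3g4g13 lay far above the Cas9-GFP range, the one with g3 inside it, and the log2 fold change was -0.65 ± 0.12 (SE, adjusted p = 0.0161). It was called in 2 of the 5 fits without a pair. Gria2, an AMPA receptor subunit, was at -0.41 ± 0.10 (SE, adjusted p = 0.0360), and Grin1, the obligatory NMDA subunit, at -0.07 ± 0.10 (SE, adjusted p = 0.784). The list median was -0.04, and the sum was 5560.3 to 6102 CPM in Cas9-GFP nuclei and 6743 to 7488 CPM in Stop-Cas9-GFP nuclei, again without overlap. Of the 31 sums, those of interneuron, GABA-A receptor, ionotropic glutamate receptor, oligodendrocyte, oligodendrocyte progenitor and microglia genes did not overlap. Among single genes tested the libraries did not overlap for 5.16%. How often sums of other genes stay apart was not measured, so these sums describe the lists only. Each member was then left out in turn, an analysis added after the data were seen. The receptor sums stayed apart whichever member was left out, while the sums overlapped without Reln or Cnr1 for interneurons, without Mbp or Plekhh1 for oligodendrocytes, without Bcan for progenitors and without P2ry12 for microglia. The sums of 8 lists are drawn by library.

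**Figure D3:**
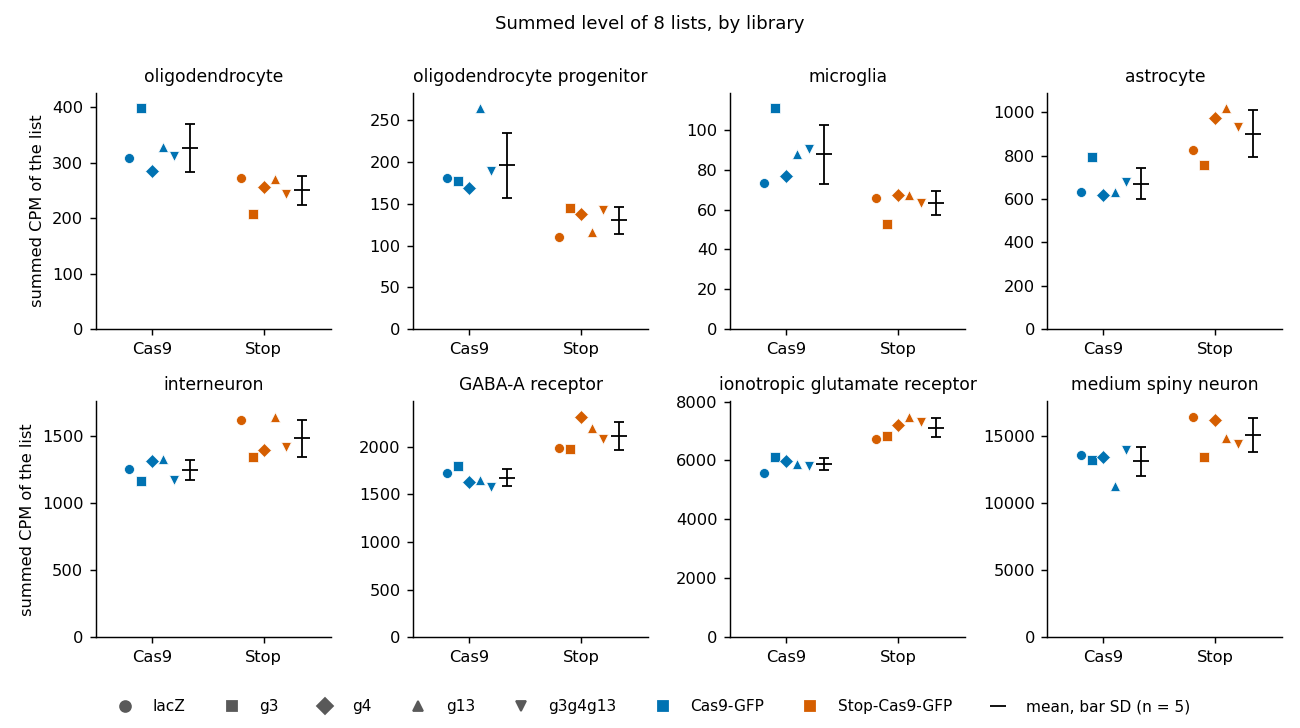
Summed CPM of the measured members of 8 lists in each library, with a symbol for each guide and the mean and SD of the 5 libraries of a line beside them. Oligodendrocyte, progenitor and microglia sums were higher in all 5 Cas9-GFP libraries, at 73.2 to 111 against 52.6 to 67.5 CPM for microglia, and both receptor sums were lower. The progenitor sums overlap without Bcan.

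Of 15 genes that all neurons share 2 were higher in Cas9-GFP nuclei and 0 lower, and the median was 0.34. The share called was 13.3%, beside 1.67% of all genes tested. Tubb3, the neuronal beta tubulin, measured 60.5, 44.6, 44.7, 48.3 and 54.4 CPM in Cas9-GFP nuclei and 35.4, 18.0, 29.0, 29.5 and 42.4 CPM in Stop-Cas9-GFP nuclei. The ranges did not overlap, and the log2 fold change was 0.75 ± 0.15 (SE, adjusted p = 0.0181). Nefm, the medium neurofilament chain, stood at 134 to 224 CPM against 85.6 to 146 CPM, higher in 5 of 5 pairs, with 0.53 ± 0.11 (SE, adjusted p = 0.0213). The synaptic vesicle gene Syt1 was at -0.25 ± 0.11 (SE, adjusted p = 0.210), the dendritic microtubule gene Map2 at -0.29 ± 0.11 (SE, adjusted p = 0.150) and Rbfox3, which encodes the nuclear antigen NeuN, at 0.13 ± 0.11 (SE, adjusted p = 0.552). The sum was 4477 to 5015 CPM in Cas9-GFP nuclei and 4492 to 4770.4 CPM in Stop-Cas9-GFP nuclei, with a ratio of means of 1.01. Neither Tubb3 nor Nefm was called without the Cas9-GFP lacZ and Stop-Cas9-GFP g3 libraries, with adjusted p = 0.0981 and 0.210. Of the 5 fits without a pair, 3 called Tubb3 and 2 called Nefm.

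Medium spiny neuron genes held no call among 16 tested by edgeR, 7 of them at an unadjusted p under 0.05, beside 18.2% of all genes, and 12 lay below 0, with a median of -0.17. Pde10a, the striatal phosphodiesterase, was at -0.26 ± 0.10 (SE, adjusted p = 0.159) and Adcy5, the striatal adenylyl cyclase, at -0.19 ± 0.11 (SE, adjusted p = 0.372). Gnal, the G protein of dopamine receptors, was at -0.34 ± 0.10 (SE, adjusted p = 0.0632), and Ppp1r1b, which encodes the dopamine-regulated phosphoprotein DARPP-32, at 0.15 ± 0.10 (SE, adjusted p = 0.480). The sum was 11263 to 13992 CPM in Cas9-GFP nuclei and 13427 to 16450.4 CPM in Stop-Cas9-GFP nuclei, with g13 lowest among the Cas9-GFP libraries. Direct pathway genes gave a median of 0.03 over 9 genes, with Drd1 at -0.38 ± 0.13 (SE, adjusted p = 0.137) and the peptide gene Tac1 at 0.13 ± 0.15 (SE, adjusted p = 0.710). Indirect pathway genes gave 0.08 over 7, with Drd2 at 0.08 ± 0.12 (SE, adjusted p = 0.782) and the peptide gene Penk at 0.06 ± 0.11 (SE, adjusted p = 0.815). Neither pathway list held a call, with 1 gene and 0 genes at an unadjusted p under 0.05.

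Genes of GABA synthesis and transport gave a median of 0.14 over 10 genes with no call. Gad1 and Gad2, the synthetic enzymes, were at 0.19 ± 0.11 (SE, adjusted p = 0.368) and -0.30 ± 0.11 (SE, adjusted p = 0.137). Cholinergic genes lay above 0 for 6 of 7, with no call and a median of 0.44. Chat, which makes acetylcholine, was at 0.21 ± 0.21 (SE, adjusted p = 0.638) and the choline transporter gene Slc5a7 at -0.37 ± 0.13 (SE, adjusted p = 0.134). Cortical excitatory genes lay above 0 for 7 of 8, with no call and a median of 0.28. Their sum, 784 to 1154 CPM in Cas9-GFP nuclei and 877 to 1107 CPM in Stop-Cas9-GFP nuclei, was far below the 4935 to 4999.6 CPM of whole cortex. Slc17a7, the vesicular glutamate transporter of cortical neurons, stood at 6.35 to 125 CPM against 7.37 to 89.7 CPM, and the kinase gene Camk2a at 608 to 757 CPM against 594 to 776 CPM. At an unadjusted p under 0.05 stood 4 of 10 GABAergic, 2 of 7 cholinergic and 1 of 8 excitatory genes, beside 18.2% of all genes.

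Transcripts of oligodendrocytes and microglia had higher sums in Cas9-GFP nuclei, with no gene called, and in the progenitor list 1 gene was called. The gene was Bcan, which encodes brevican, a proteoglycan of the matrix around neurons made by oligodendrocyte progenitors and astrocytes. It measured 104, 112, 114, 184 and 117 CPM in Cas9-GFP nuclei and 51.7, 76.3, 71.4, 42.3 and 74.1 CPM in Stop-Cas9-GFP nuclei. The ranges did not overlap, g13 stood far above the other Cas9-GFP libraries, and the log2 fold change was 0.99 ± 0.18 (SE, adjusted p = 0.0101). The progenitor genes Olig1, Olig2 and Pdgfra were at 1.69 ± 0.67 (SE, adjusted p = 0.189), 0.95 ± 0.58 (SE, adjusted p = 0.411) and 0.35 ± 0.30 (SE, adjusted p = 0.576). Of the 7 tested members 6 lay above 0 and 1, Vcan, below. Vcan had means of 46.0 CPM in Cas9-GFP and 52.3 CPM in Stop-Cas9-GFP nuclei. It was at -0.19 ± 0.14 (SE, adjusted p = 0.501), lower in 4 of 5 pairs. The progenitor sum was 169 to 264 CPM in Cas9-GFP nuclei and 110.4 to 145 CPM in Stop-Cas9-GFP nuclei, without overlap, and this rested on Bcan. The other progenitor genes summed to 55.6 to 80.3 CPM in Cas9-GFP and 58.7 to 73.9 CPM in Stop-Cas9-GFP nuclei, which overlap. Olig1 and Olig2 held few counts. The list without Olig1 still summed to 168 to 261 CPM in Cas9-GFP nuclei, and without Olig2 to 167 to 261 CPM. Without the g13 pair Bcan was at 0.72 and still called (adjusted p = 0.0392), and of the 5 such fits the one without the lacZ pair did not call it.

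All 13 oligodendrocyte genes had a log2 fold change above 0, with a median of 0.48, no call and 4 at an unadjusted p under 0.05, beside 18.2% of all genes. Mbp, the myelin basic protein gene, stood at 74.3 to 104 CPM against 47.1 to 76.4 CPM, with 0.48 ± 0.14 (SE, adjusted p = 0.0818). Cnp and Plekhh1, with Mbp the members of highest CPM, were at 0.19 ± 0.12 (SE, adjusted p = 0.436) and 0.33 ± 0.16 (SE, adjusted p = 0.297). Cnp stood at 70.3 to 90.2 CPM against 56.6 to 92.7 CPM. Sox10, a transcription factor of the lineage, was at 1.65 ± 0.50 (SE, adjusted p = 0.0831), and the myelin genes Mobp and Mog at 0.59 ± 0.19 (SE, adjusted p = 0.109) and 1.10 ± 0.36 (SE, adjusted p = 0.110). The sum was 285 to 398 CPM in Cas9-GFP nuclei and 207 to 273 CPM in Stop-Cas9-GFP nuclei, with g3 highest in Cas9-GFP and lowest in Stop-Cas9-GFP nuclei. Of 11 microglia genes 10 lay above 0, with a median of 0.94, no call and 3 at an unadjusted p under 0.05, beside 18.2% of all genes. Csf1r, the growth factor receptor of microglia, measured 11.0, 20.1, 12.1, 11.3 and 23.3 CPM in Cas9-GFP nuclei and 8.44, 4.95, 8.06, 7.68 and 10.5 CPM in Stop-Cas9-GFP nuclei. The log2 fold change was 0.94 ± 0.25 (SE, adjusted p = 0.0573). P2ry12, a purinergic receptor of resting microglia, was at 1.19 ± 0.41 (SE, adjusted p = 0.129). The microglia sum was 73.2 to 111 CPM in Cas9-GFP nuclei and 52.6 to 67.5 CPM in Stop-Cas9-GFP nuclei, and 404 to 479.6 CPM in whole cortex. Counts of the glial lists depended on the fit. DESeq2 called 4 genes higher and 1 lower in the 8 lists of glia and other cells, and edgeR without the lacZ pair called none. Of the 13 microglia genes measured, Trem2 was at 0 in all 10 libraries and Itgam was under the filter on low counts, while each of the 13 oligodendrocyte genes passed it. The part of these glial transcripts in the other differences between the lines was not tested.

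Astrocyte genes lay above 0 for 7 of 13. Slc4a4, a sodium bicarbonate cotransporter also made by neurons, was the called gene and was lower in Cas9-GFP nuclei. It measured 362, 402, 369, 354 and 401 CPM in Cas9-GFP nuclei and 558, 489, 595, 642 and 561 CPM in Stop-Cas9-GFP nuclei. The ranges did not overlap, and the log2 fold change was -0.59 ± 0.10 (SE, adjusted p = 0.00965), called in 3 of the 5 fits without a pair. The glutamate transporter genes Slc1a2 and Slc1a3 were at -0.42 ± 0.14 (SE, adjusted p = 0.116) and -0.41 ± 0.16 (SE, adjusted p = 0.192), and Aldoc, a glycolytic enzyme of astrocytes, at 0.67 ± 0.19 (SE, adjusted p = 0.0690). Gja1 and Aqp4, which encode a gap junction protein and a water channel, were at 6.45 to 24.0 CPM against 6.11 to 20.0 CPM and 3.32 to 10.00 CPM against 3.98 to 11.9 CPM. The median over 13 genes was 0.18, and the sum was 618 to 793 CPM in Cas9-GFP nuclei and 756 to 1019 CPM in Stop-Cas9-GFP nuclei. Vascular, ependymal, leptomeningeal and neuroblast genes summed to at most 38.1 CPM in any library, and none of their 12 tested genes was called or stood at an unadjusted p under 0.05 in edgeR. Their medians were 0.14, -0.04, -0.03 and 0.01 in that order.

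Genes of regions outside the striatum stood high in single libraries. Genes of the thalamus, a relay behind the striatum, stood high in the Cas9-GFP library with g13 and the Stop-Cas9-GFP library with g3g4g13. Plekhg1 measured 8.51, 4.20, 7.56, 80.6 and 2.75 CPM in Cas9-GFP nuclei and 4.63, 2.81, 2.89, 3.89 and 60.3 CPM in Stop-Cas9-GFP nuclei. Slc17a6, the vesicular glutamate transporter of thalamic neurons, measured 0.709, 4.02, 3.69, 23.0 and 2.51 CPM in Cas9-GFP nuclei and 0.356, 11.1, 3.88, 3.89 and 20.5 CPM in Stop-Cas9-GFP nuclei, and Prkcd, a protein kinase C gene, 2.94, 3.12, 4.88, 20.1 and 2.75 CPM in Cas9-GFP nuclei and 3.80, 2.81, 4.48, 7.57 and 11.0 CPM in Stop-Cas9-GFP nuclei. Tcf7l2, a transcription factor of the thalamus, measured 0.608, 0.982, 2.30, 9.86 and 0.314 CPM in Cas9-GFP nuclei and 0.119, 0.485, 2.09, 0.890 and 10.0 CPM in Stop-Cas9-GFP nuclei. The summed list was 150.4 CPM in the first and 111 CPM in the second library, and 11.7 to 24.7 CPM in the other 8. The Cas9-GFP library with g13 also held the lowest medium spiny neuron sum of its line, 11263 CPM, and the highest septum sum of all 10, 42.3 CPM. None of the 6 tested thalamus genes was called between the lines, with 0 at an unadjusted p under 0.05 in edgeR and log2 fold changes such as 0.76 ± 0.81 (SE, adjusted p = 0.676) for Plekhg1. Their median was 0.18.

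**Figure D4:**
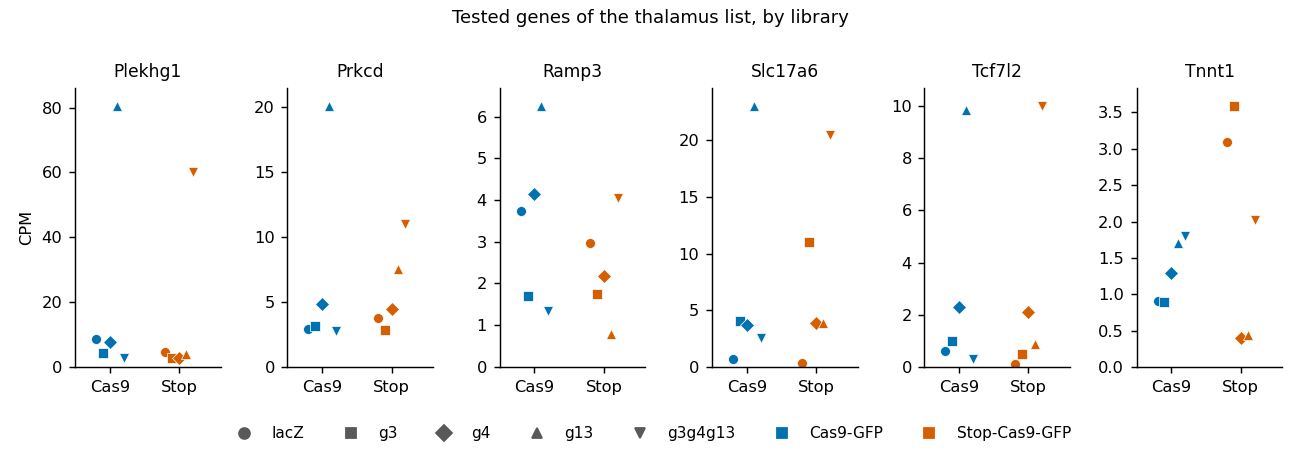
CPM of the 6 tested genes of the thalamus list in each library, with a symbol for each guide. Plekhg1, Slc17a6, Prkcd and Tcf7l2 have their 2 highest values in the Cas9-GFP library with g13 and the Stop-Cas9-GFP library with g3g4g13, at 80.6 and 60.3 CPM for Plekhg1.

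The hippocampus list held the single call among the region lists. Zbtb20, a zinc-finger repressor of hippocampal neurons that is also made elsewhere in the forebrain, was lower in Cas9-GFP nuclei. It measured 119.6, 158, 185, 141 and 175 CPM in Cas9-GFP nuclei and 182, 266, 253, 309 and 366 CPM in Stop-Cas9-GFP nuclei. It was lower in 5 of 5 pairs, its Stop-Cas9-GFP library with lacZ lay inside the Cas9-GFP range, and the log2 fold change was -0.80 ± 0.11 (SE, adjusted p = 0.00653), called in all 5 fits without a pair. The other 4 tested genes of the list were not called, the median of all 5 was 0.37, and Wfs1 was at -0.07 ± 0.18 (SE, adjusted p = 0.880) and Grik4 at 0.49 ± 0.19 (SE, adjusted p = 0.178). Deep-layer genes gave a median of -0.14 over 12 genes, with Foxp2, which striatal neurons also make, at -0.39 ± 0.11 (SE, adjusted p = 0.0676). Upper-layer genes gave -0.02 over 10, with Cux1 at -0.06 ± 0.10 (SE, adjusted p = 0.821). Claustrum genes gave 0.45 over 7, midbrain dopaminergic genes 0.50 over 4, septum genes 0.23 over 4 and hypothalamus genes -0.09 over 2. Th, which makes the dopamine precursor and marks a class of striatal interneurons, stood at 11.9 CPM in the Cas9-GFP lacZ library. The rest of that line held 4.64 to 5.66 CPM, inside the 2.81 to 6.07 CPM of Stop-Cas9-GFP nuclei. Its log2 fold change was 0.62 ± 0.37 (SE, adjusted p = 0.393).

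Lists of cell state held 1 call among 47 genes, 2.13% beside 1.67% of all genes tested. Neat1, the nuclear RNA of paraspeckles, stood at 48.8 to 91.6 CPM against 28.7 to 53.2 CPM, higher in 5 of 5 pairs, with 0.63 ± 0.14 (SE, adjusted p = 0.0295), and was called in none of the fits without a pair. Malat1 and Meg3, other nuclear RNAs, were at -0.26 ± 0.11 (SE, adjusted p = 0.217) and 0.21 ± 0.09 (SE, adjusted p = 0.223), and the median of the 8 nuclear RNA genes was 0.08. Activity-induced genes gave a median of -0.17 over 15, with sums of 442 to 1006 CPM in Cas9-GFP nuclei and 463 to 746 CPM in Stop-Cas9-GFP nuclei. Npas4, an early-response transcription factor, reached 167 CPM in the Cas9-GFP library with g3g4g13 and at most 82.8 CPM in the rest of that line. Genes of the p53 response, which DNA cuts can induce, gave 0.02 over 12, and Cdkn1a, the cell cycle inhibitor of that response, was at 0.09 ± 0.43 (SE, adjusted p = 0.937). Interferon-stimulated genes gave -0.10 over 5 and heat shock genes 0.17 over 7. At an unadjusted p under 0.05 stood 2 of 15 activity-induced genes, a share below that of all genes, and 0 genes of the other 3 lists.

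The largest named differences included genes of several kinds. Higher in Cas9-GFP nuclei were the ribosomal protein genes Rplp1, Rpl29 and Rps29, the GTPase regulator Arhgap22, the depalmitoylase gene Abhd17a, the neurogenic factor Neurod4, the laminin receptor subunit Itga6, the Fanconi anaemia core gene Faap100 and the antisense RNA Gm15419. Rplp1, an acidic protein of the large ribosomal subunit, had the largest log2 fold change of these, 1.64 ± 0.24 (SE, adjusted p = 0.00653). Rps29, a protein of the small subunit, measured 13.5, 9.91, 8.38, 7.20 and 14.4 CPM in Cas9-GFP nuclei and 5.35, 3.30, 3.98, 4.01 and 4.78 CPM in Stop-Cas9-GFP nuclei, without overlap, with 1.29 ± 0.26 (SE, adjusted p = 0.0222). Itga6 measured 14.1, 18.6, 14.5, 17.7 and 20.4 CPM in Cas9-GFP nuclei and 6.53, 7.08, 7.07, 6.45 and 9.74 CPM in Stop-Cas9-GFP nuclei, without overlap, with 1.21 ± 0.21 (SE, adjusted p = 0.00872). The other 6 ran from 1.09 to 1.53. Arhgap22, Abhd17a and Neurod4 had means under 10 CPM, and these 3, Rpl29 and Faap100 were not called without the Cas9-GFP lacZ and Stop-Cas9-GFP g3 libraries.

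Gm15419 (chr8:11399186-11417892, minus strand) runs antisense inside Col4a2 and was called in all 5 fits without a pair, at 1.26 ± 0.19 (SE, adjusted p = 0.00688). Col4a2 and Col4a1, which encode the alpha chains of collagen IV in basement membranes, are transcribed in opposite directions from starts whose gene models share 22 bases. Both were called too, and they were chosen here after their values were seen. Col4a1 (chr8:11198423-11312826, minus strand) measured 126, 129, 107, 126 and 106 CPM in Cas9-GFP nuclei and 84.7, 67.6, 69.7, 71.4 and 77.4 CPM in Stop-Cas9-GFP nuclei, and Col4a2 (chr8:11312805-11449287, plus strand) 364, 407, 342, 447 and 337 CPM in Cas9-GFP nuclei and 289.8, 187, 184, 227 and 219 CPM in Stop-Cas9-GFP nuclei. Neither gene's ranges overlapped between lines. The log2 fold changes were 0.68 ± 0.11 (SE, adjusted p = 0.00838) and 0.79 ± 0.12 (SE, adjusted p = 0.00653). The counts were made by strand. Among all called genes 10 pairs overlapped, 9 of them on opposite strands, and both partners had the same direction in 10. How often overlapping genes share a direction among all genes tested was not measured.

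Lower in Cas9-GFP nuclei were the DNA sensor Aim2, the receptor Gpr55, the calcium store gene Casq2, the zinc-binding factor Churc1 and 6 noncoding or pseudogene models. Aim2, which senses DNA in the cytosol and starts the inflammasome, measured 6.48, 8.57, 11.6, 6.07 and 5.42 CPM in Cas9-GFP nuclei and 22.8, 18.9, 30.3, 38.1 and 14.1 CPM in Stop-Cas9-GFP nuclei. The ranges did not overlap, the log2 fold change was -1.66 ± 0.23 (SE, adjusted p = 0.00559), and Aim2 was called in all 5 fits without a pair. A830073O21Rik, an unclassified transcript model on chr7, measured 9.32, 14.3, 21.8, 19.7 and 14.4 CPM in Cas9-GFP nuclei and 36.1, 29.1, 45.4, 42.2 and 38.9 CPM in Stop-Cas9-GFP nuclei, without overlap, with -1.30 ± 0.17 (SE, adjusted p = 0.00455). Gpr55, a lipid receptor, was at -1.41 ± 0.31 (SE, adjusted p = 0.0292), Casq2 at -1.26 ± 0.29 (SE, adjusted p = 0.0346) and Churc1 at -1.40 ± 0.35 (SE, adjusted p = 0.0460), and the last pair was not called without the Cas9-GFP lacZ and Stop-Cas9-GFP g3 libraries. The processed pseudogene Gm16111 (chr5:21889780-21890064, plus strand) lies inside Reln on the other strand, at -1.81 ± 0.30 (SE, adjusted p = 0.00872), and Gm44846 (chr7:88119158-88122400, plus strand) inside the glutamate receptor gene Grm5 on the same strand, at -1.75 ± 0.29 (SE, adjusted p = 0.00872). Grm5 itself was called at -0.56 ± 0.10 (SE, adjusted p = 0.00965). The pseudogene Gm18609 was at -1.26 ± 0.24 (SE, adjusted p = 0.0172). Reads of Gm16111 and Gm18609 that fit near copies elsewhere equally well may be missing from these counts of uniquely mapped reads. The antisense RNA Gm13883 and the lincRNA 4831440E17Rik were at -1.39 ± 0.35 (SE, adjusted p = 0.0461) and -1.41 ± 0.35 (SE, adjusted p = 0.0460), and neither was called without those libraries.

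Further gene families were listed by name after the calls had been seen, so their counts describe these calls and support nothing. The share called was 8% for ribosomal protein genes, 20% for glycolysis genes and 27.3% for basement membrane genes. It was 21.1% for axon guidance and adhesion genes, 14.3% for potassium channel genes and 3.35% for zinc-finger genes, beside 1.67% of all genes tested. Of 75 genes of cytosolic ribosomal proteins 6 were higher and 0 lower in Cas9-GFP nuclei, 68 lay above 0, and the median was 0.45. Their sum was 1631 to 2229.8 CPM in Cas9-GFP nuclei and 1361 to 1794 CPM in Stop-Cas9-GFP nuclei, with lacZ highest in each line. Of 15 glycolysis genes 3 were higher and 0 lower, with a median of 0.39. Gpi1, Tpi1 and Aldoa, enzymes of the upper steps, were at 0.59 ± 0.10 (SE, adjusted p = 0.00872), 0.71 ± 0.13 (SE, adjusted p = 0.0111) and 0.53 ± 0.11 (SE, adjusted p = 0.0242). Their sum was 4487 to 5536 CPM in Cas9-GFP nuclei and 3574 to 4283 CPM in Stop-Cas9-GFP nuclei, without overlap. Of 11 basement membrane genes 3 were higher, among them Col15a1 at 0.76 ± 0.19 (SE, adjusted p = 0.0472), while the laminin genes Lamb1 and Lamc1 were at -0.25 ± 0.12 (SE, adjusted p = 0.306) and -0.08 ± 0.11 (SE, adjusted p = 0.742).

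Genes of axon guidance and synaptic adhesion held 7 calls below and 1 above 0 among 38, with a median of -0.30 and sums of 3641 to 3835 CPM in Cas9-GFP nuclei and 3971 to 4909 CPM in Stop-Cas9-GFP nuclei, without overlap. Dcc, the netrin receptor, was at -0.87 ± 0.17 (SE, adjusted p = 0.0192) and Unc5d, a partner that turns attraction into repulsion, at -0.83 ± 0.19 (SE, adjusted p = 0.0353), while its relative Unc5a was at 0.53 ± 0.12 (SE, adjusted p = 0.0292). Robo2, the Slit receptor, stood at 183 to 242 CPM against 293 to 354 CPM, with -0.63 ± 0.10 (SE, adjusted p = 0.00688). Nlgn1 and its partner Nrxn3, which join synapses, were at -0.52 ± 0.10 (SE, adjusted p = 0.0198) and -0.44 ± 0.10 (SE, adjusted p = 0.0292), the latter under the fold threshold. Of 14 voltage-gated potassium channel genes 2 were lower, Kcnb2 at -0.88 ± 0.21 (SE, adjusted p = 0.0375) and Kcna1 at -0.56 ± 0.14 (SE, adjusted p = 0.0454). Of 358 zinc-finger genes with Zfp, Zkscan or Zscan names 10 were lower and 2 higher, 244 lay below 0, and the median was -0.13. Zfp871 was at -1.02 ± 0.18 (SE, adjusted p = 0.00903), and reads of such genes that fit near copies equally well may be missing from these counts of uniquely mapped reads.

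Called genes differed in length by direction. Genes lower in Cas9-GFP nuclei had a median exonic length of 7.19 kb and a median span of 41.3 kb, genes higher 3.61 and 16.4 kb, and all tested genes 3.99 and 20.7 kb. In the quintile of shortest exonic length 29 genes were higher and 7 lower, with a median log2 fold change of 0.06. In the quintile of longest exonic length 21 were higher and 64 lower, with a median of -0.10. That quintile held 42.9 to 47.5% of the counts of tested genes in Cas9-GFP and 47.1 to 50.1% in Stop-Cas9-GFP libraries, with the Cas9-GFP lacZ library lowest of all. With the length trend of each library removed, an analysis added after the data were seen, 103 genes were higher and 72 lower, 147 of them among the 261. Reln, Npy, Sst, Bcan, Zbtb20, Gabrg3, Tubb3, Nefm and Neat1 were still called, and Reln was at -0.86 with adjusted p = 0.00661. Grin2b, Gabrb1, Slc4a4 and Gabrb2 were not called there, with values of -0.43, -0.48, -0.48 and -0.65. The part of length in the other differences was not tested.

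**Figure D5:**
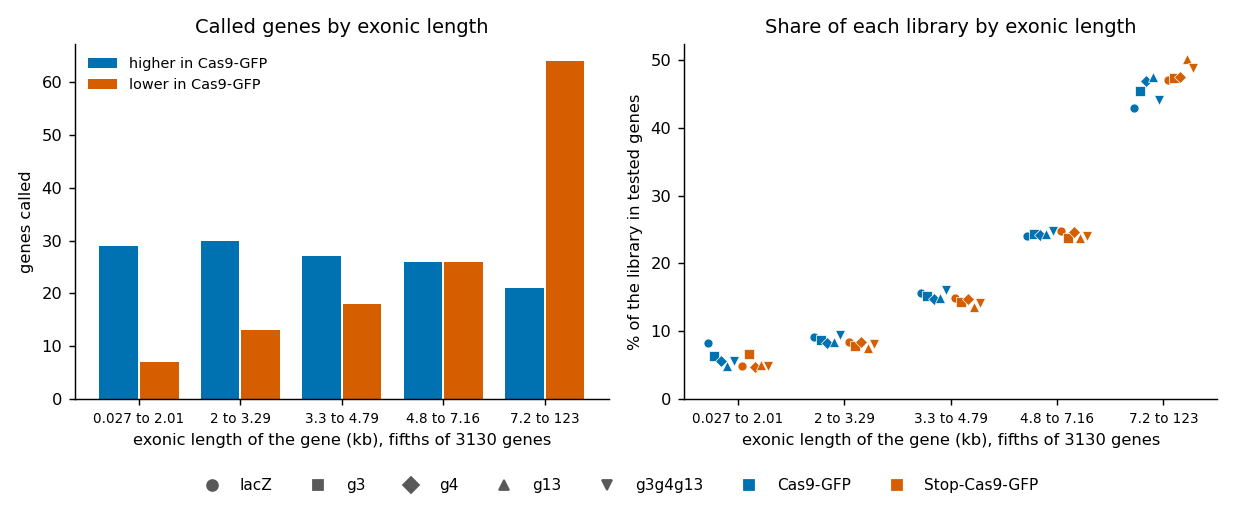
Number of called genes in each quintile of exonic length, in kb, by direction on the left, and the share of each library's counts of tested genes in that quintile on the right, with a symbol for each guide. Calls lower in Cas9-GFP nuclei run from 7 in the shortest to 64 in the longest quintile, and calls higher from 29 to 21.

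Transposable elements differed in 1 of 889 subfamilies tested, 0.112%. RLTR13A2, a long terminal repeat of the ERVK class of endogenous retroviruses, measured 199, 99.7, 148, 142 and 186 CPM, here of the TE counts alone, in Cas9-GFP nuclei and 87.5, 40.9, 45.6, 80.2 and 23.8 in Stop-Cas9-GFP nuclei. It was higher in 5 of 5 pairs without overlap, at a log2 fold change of 1.55 ± 0.26 (SE, edgeR adjusted p = 0.0105), and was not called without the lacZ pair. Medians were 0.03 over 249 ERVK, -0.11 over 87 ERV1 and 0.03 over 127 L1 subfamilies. On the library sizes of the genes 1 subfamily was higher and 23 lower, with the median of all subfamilies at -0.28. Subfamily sums include copies on chrX and chrY.

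Whether the line difference itself depended on Trim28 editing was tested as an interaction. With edgeR 0 of 15650 genes were called, 0%, 670 had an unadjusted p under 0.05, and DESeq2 called 0. For Reln the line difference with the Trim28 guides minus that with lacZ was -0.04 ± 0.35 on the log2 scale, for Npy -0.97 ± 0.43 and for Sst -1.20 ± 0.45 (SE). Each line had 1 lacZ animal, so these errors rest on the spread among the edited animals.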

How the data were processed

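The authors sequenced polyadenylated RNA of sorted nuclei with a stranded kit, mapped the reads with STAR 2.6.0 to GRCm38.p6 and counted uniquely mapped reads by gene and strand with featureCounts of Subread 1.6.3. The deposited gene table holds raw counts, and 7 of its columns, which stand apart here as other values only because of the layout of the file, hold raw counts too. The authors also deposited estimated counts of genes and transposable element (TE) subfamilies from TEtranscripts, in which a read that maps to many places is shared out, as whole numbers. The Stop-Cas9-GFP columns carry another name for the line and were matched to their samples by guide. The number of columns not mapped to a sample was 0.

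Of 55298 genes, 4184 on chrX and chrY were left out and 51114 kept. edgeR 4.0.16 in R 4.3.3 fitted line with guide as a block (filterByExpr, TMM, quasi-likelihood test, Benjamini-Hochberg), after tests on simulated data. CPM of the nuclei use TMM-normalized library sizes, and those of whole cortex the total counts without chrX and chrY. Alternatives were no block, DESeq2 1.42.0, other scalings, no filter, TEtranscripts gene counts, no mitochondrial genes and leaving out each guide pair. Leaving out libraries singly, and removing length trends by loess, were added after the data were seen.

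The lists and tests were chosen with earlier results of these data known. Named by rule were Trim28, Gt(ROSA)26Sor, the 10 largest called differences each way with 1 sign in all 5 pairs and a mean of at least 5 CPM, and of each list the 3 members with the highest CPM and up to 4 called members. Other list members were named for their known roles after their values were seen. The guide sequences come from the study's designed guides and were placed on the genome by exact match. Some genes that these rules name are not reported here. Counts carry no molecular identifiers.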

Additional observations from a re-analysis of the deposited data

Results flagged for a closer look

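In 33 of 306 sets of 5 libraries, for a named gene or a summed list in 1 line, 1 library stood far from the other 4. The gap to the nearest library, as a share of the whole range, was then above Dixon's value of 0.71, and it is given in brackets after each value below. Chance gives this in about 5% of sets, and 10.8% were found. Many sets share genes or libraries.

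Thalamus genes and several others stood apart in 2 libraries. The Cas9-GFP library with g13 was highest of its line for Plekhg1, 80.6 CPM against 2.75 to 8.51 (0.926), and Slc17a6, 23.0 CPM against 0.709 to 4.02 (0.852). It was also highest for Prkcd, 20.1 CPM against 2.75 to 4.88 (0.877), and Bcan, 184 CPM against 104 to 117 (0.835). Its values also led for septum genes, summed, 42.3 CPM against 21.5 to 27.0 (0.731), and thalamus genes, summed, 150.4 CPM against 11.7 to 24.1 (0.910). The same held for oligodendrocyte progenitor genes, summed, 264 CPM against 169 to 189 (0.794). It was lowest of its line for Syt6, 262 CPM against 334 to 355 (0.772), and medium spiny neuron genes, summed, 11263 CPM against 13248 to 13992 (0.727). The Stop-Cas9-GFP library with g3g4g13 was highest of its line for Cux1, 94.3 CPM against 80.1 to 84.2 (0.710), and Zic1, 14.1 CPM against 4.37 to 7.13 (0.715). It was also highest for Plekhg1, 60.3 CPM against 2.81 to 4.63 (0.968), and Grik4, 22.3 CPM against 14.4 to 16.5 (0.728). Its values also led for Itga6, 9.74 CPM against 6.45 to 7.08 (0.808), and thalamus genes, summed, 111 CPM against 16.3 to 24.7 (0.912). The same held for neuroblast and dividing cell genes, summed, 38.1 CPM against 25.6 to 27.9 (0.813).

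The libraries that stood apart on the first and second principal components held further genes. Among Cas9-GFP nuclei the lacZ library was highest for Th, 11.9 CPM against 4.64 to 5.66 (0.859), and Kl, 6.08 CPM against 2.36 to 3.32 (0.742). It was also highest for Trim28, 147 CPM against 97.5 to 109 (0.774). It was lowest for Gabrb1, 109.5 CPM against 135 to 145 (0.719). Among Stop-Cas9-GFP nuclei the g3 library was highest for Oprk1, 154 CPM against 85.5 to 92.0 (0.904), and Stat2, 185 CPM against 111 to 128 (0.766). It was lowest for Ifi27, 4.95 CPM against 11.3 to 12.4 (0.864), and microglia genes, summed, 52.6 CPM against 63.3 to 67.5 (0.715). Th and Oprk1 were not called between the lines.

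Activity-induced genes stood apart in opposite directions in different libraries. With g3g4g13 the Cas9-GFP nuclei were highest for Npas4, 167 CPM against 63.4 to 82.8 (0.813), and activity-induced genes, summed, 1006 CPM against 442 to 574 (0.765). They were lowest for interferon-stimulated genes, summed, 124 CPM against 147 to 156 (0.725). With g13 the Stop-Cas9-GFP nuclei were highest for Ddc, 3.12 CPM against 0.459 to 0.832 (0.860). They were lowest for activity-induced genes, summed, 463 CPM against 666 to 746 (0.719). With g3 the Cas9-GFP nuclei were highest for Slc1a2, 197 CPM against 114 to 133 (0.771). With g4 the Cas9-GFP nuclei were lowest for Cnp, 70.3 CPM against 85.4 to 90.2 (0.760). With g4 the Stop-Cas9-GFP nuclei were lowest for Nos1, 82.3 CPM against 96.7 to 102 (0.745). With lacZ the Stop-Cas9-GFP nuclei were lowest for Gabrg3, 108 CPM against 157 to 172 (0.764).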

How the results depend on the processing

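The 261 called genes became 405 with DESeq2 and 494 without a filter on low counts, 9 to 313 without 1 guide pair and 93 to 350 without 1 library and no block. The lowest of these came without the lacZ pair and without the Stop-Cas9-GFP g13 library. Without the Cas9-GFP lacZ, g3 or g3g4g13 library, or the Stop-Cas9-GFP g4 library, 123, 173, 152 and 103 were called, and without the g4 pair 118. The neuronal lists went from 9 calls to 1 to 11 without 1 pair and 4 to 10 without 1 library. The region lists went from 1 to 2 with DESeq2, 3 without the filter, 2 without the Cas9-GFP lacZ and Stop-Cas9-GFP g3 libraries, 1 to 2 without 1 pair and 1 to 3 without 1 library. The glial lists went from 2 to 5 with DESeq2, 5 without the filter, 4 with TEtranscripts counts, 1 with either length trend removed, 0 to 4 without 1 pair and 2 to 4 without 1 library. Called TE subfamilies went from 1 to 24 on gene library sizes and ranged over 0 to 1 without 1 pair. The interaction went from 0 to 21 genes without the filter. The cause of these changes was not tested. Of the 33 called genes named by rule, 28 were no longer called without the lacZ pair, 22 without the g13 pair, 12 without the Cas9-GFP lacZ and Stop-Cas9-GFP g3 libraries and 9 with the exonic length trend removed. None of the 33 changed sign in any alternative that gave it a value.

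Without the replicate block on guide 274 genes were called, 226 of them among the 261, and the glial lists held 4 calls. Libraries of 1 guide did not deviate from their line means together, with r from -0.08 to 0.10 over the 5 pairs across genes, which are not independent replicates, and 1 of the 5 pairs correlated best with its own guide. The guide is a treatment given to both lines, not a shared animal. Whether animals of 1 guide shared a day is not known here.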
